A study of Mus musculus with 8 samples.

Results

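The lysophospholipid acyltransferases are the enzymes that put a fatty acid back onto a phospholipid that has lost one of its chains. The genes followed here were Lpcat1, Lpcat2, Lpcat2b, Lpcat3, Lpcat4, Mboat1, Mboat2, Mboat7, Lclat1 and Lpgat1. They were found among the non-control probes of a mouse gene expression array by the RefSeq transcript that each probe is assigned to. All 10 genes had a probe, out of 20018 genes that could be named in this way. Lpgat1 had 3 probes and the other 9 genes had 1 each, which made 12 probes, each printed once on the array. The measurements were made in whole retina of 2-week-old C57BL/6 mice, with 4 wildtype (WT) samples and 4 samples from mice knocked out for Lpcat1 (KO). The study describes the knockout as global, not limited to a cell type. By the study's methods the line came from a C57BL6/N background and was crossed to C57BL6/J to take out the rd8 allele of Crb1, with rd8 homozygotes not used. The sources used here do not say that the samples of a genotype came from separate animals, so the p-values below measure the spread between samples only. The comparison asks what happens to the transcript of the deleted enzyme, and whether any of its relatives is expressed at a higher level when it is missing.

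Phospholipids are made with a first set of fatty acids and are then remodelled. Phospholipases remove a chain, and lysophospholipid acyltransferases replace it with another one from acyl-CoA, a cycle known as the Lands cycle. The enzymes belong to 2 unrelated families. Lpcat1, Lpcat2, Lpcat2b, Lpcat4, Lclat1 and Lpgat1 resemble the phosphatidic acid-making AGPAT enzymes, while Lpcat3, Mboat1, Mboat2 and Mboat7 are membrane-bound O-acyltransferases (MBOAT). Each member prefers certain head groups and certain acyl-CoAs. LPCAT1 places palmitate into lysophosphatidylcholine and makes dipalmitoyl phosphatidylcholine, a fully saturated lipid abundant in lung surfactant and in photoreceptors, and loss of the mouse gene is known to cause degeneration of the photoreceptors.

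Levels are log2 of the background-corrected signal minus the 75th percentile of the same array. A difference is the KO mean minus the WT mean of these log2 levels, given with its standard error (SE), its 95% interval and the p of limma adjusted over all 33975 tested probes. Probes differ in how well they bind their target, so levels are compared between samples and never between genes. A probe entered the test if every array of one genotype, or of both, flagged its signal as well above background, and it was called when the adjusted p was under 0.05 and the fold change over 1.2. Across the array 2.92% of the tested probes were called (993 probes), with 471 higher (1.39%) and 522 lower (1.54%) in KO, and scaling by the 75th percentile of the probes detected on all arrays gave 584 and 361. The 8 arrays lay on 1 slide and were scanned together, with WT in one row of the slide and KO in the next, so that slide row and genotype cannot be told apart. The signal at the 75th percentile ranged from 638.4 to 737.8 over the 8 arrays and the number of probes well above background from 33117 to 36373. Precision is limited by the number of arrays.

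Of the 12 probes of the family, 10 were tested (8 genes). The Lpcat1 probe was the only one called, and it was lower in KO. None of the 9 tested probes of the relatives was called in either direction (0 by limma and 0 by the unpaired test named in the methods, with 2 and 3 probes, respectively, at an unadjusted p under 0.05). One call lower and 0 higher among 10 probes have to be read against the 1.54% and 1.39% of all tested probes. With no limit on the fold change 0 of the 9 probes of the relatives passed, beside 5.5% of all tested probes. The differences of the relatives ran from -0.14 to 0.16, with 4 probes above 0 and 5 below, although Mboat1 and Lclat1, both within 0.02 of 0, changed sign under another background correction. Standard errors were 0.04 to 0.06, against a median of 0.07 over all tested probes. For 7 of the 9 probes the whole 95% interval lay within a 1.2-fold change in either direction, and for 8 of 9 it stayed below a 1.2-fold rise. The highest upper bound was a 1.21-fold rise, for Mboat7. The median difference was -0.09 over the 10 tested probes of the family and -0.06 over the 9 of the relatives, beside -0.04 over all tested probes.

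**Figure D1:**
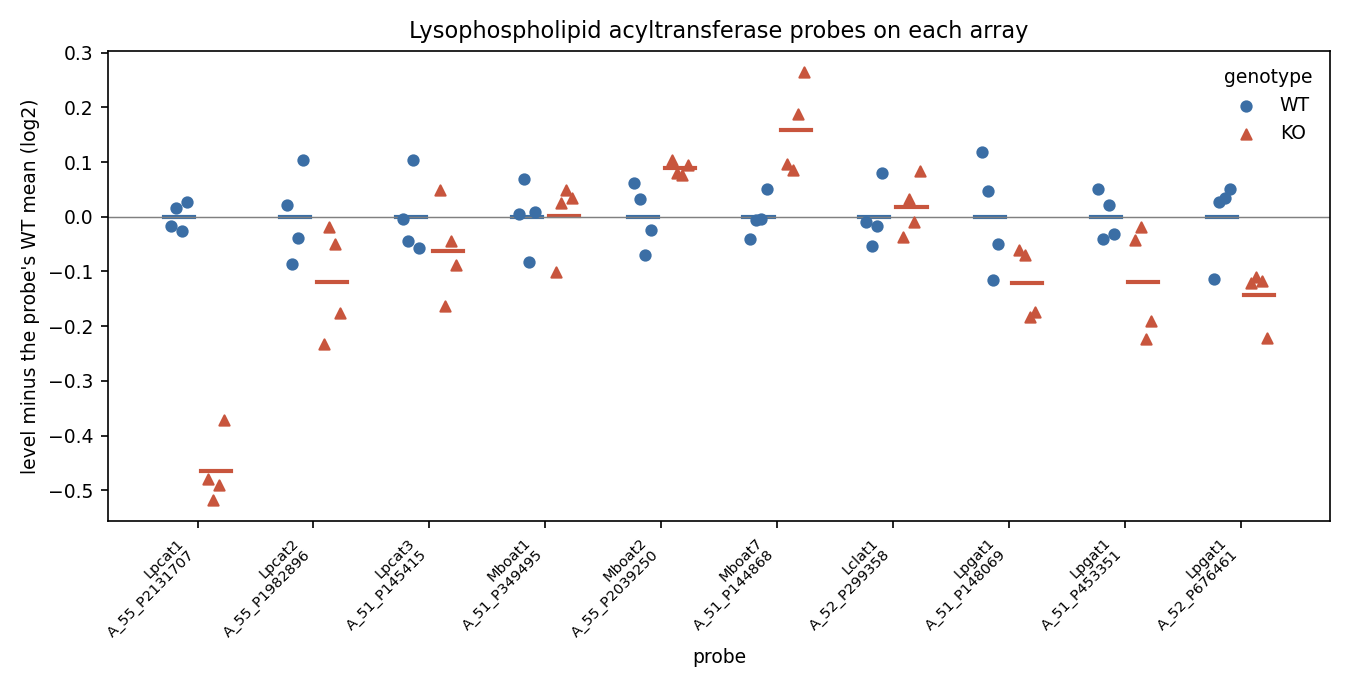
Each point is 1 array, plotted as the log2 level of the probe minus that probe's WT mean, for the 10 tested probes of the family; circles are WT, triangles are KO and horizontal bars are the means of 4 arrays. The Lpcat1 triangles lie well below every circle of that probe, while the triangles of Mboat2 and Mboat7 lie just above their circles and those of the other probes overlap them.

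The Lpcat1 probe (A_55_P2131707) gave a signal well above background in each of the 8 samples. The WT levels were -0.42, -0.39, -0.43 and -0.38 in replicates 1 to 4, and the KO levels were -0.88, -0.92, -0.90 and -0.78. All KO levels lay below all WT levels, with a gap of 0.35 between the closest pair, and the spread within each genotype was small (SD 0.03 in WT and 0.06 in KO). KO minus WT came to -0.46 (SE 0.04, 95% interval -0.56 to -0.37, adjusted p = 0.0036), and the two-sided exact permutation test gave p = 0.0286, the smallest that 4 against 4 samples allow. By p-value it ranked 33 of the 33975 tested probes, and by the size of the difference 784. The KO signal was thus 72.5% of the WT signal (95% interval 67.7% to 77.5%), with raw signals between 343.0 and 546.5 over the 8 arrays. The array therefore reported a transcript at a reduced level rather than at background. Whether this probe lies inside or outside the deleted sequence is not known here, so the remaining signal does not tell how much intact transcript was present, and no other probe was named Lpcat1 through RefSeq, which named 47.4% of the probes.

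**Figure D2:**
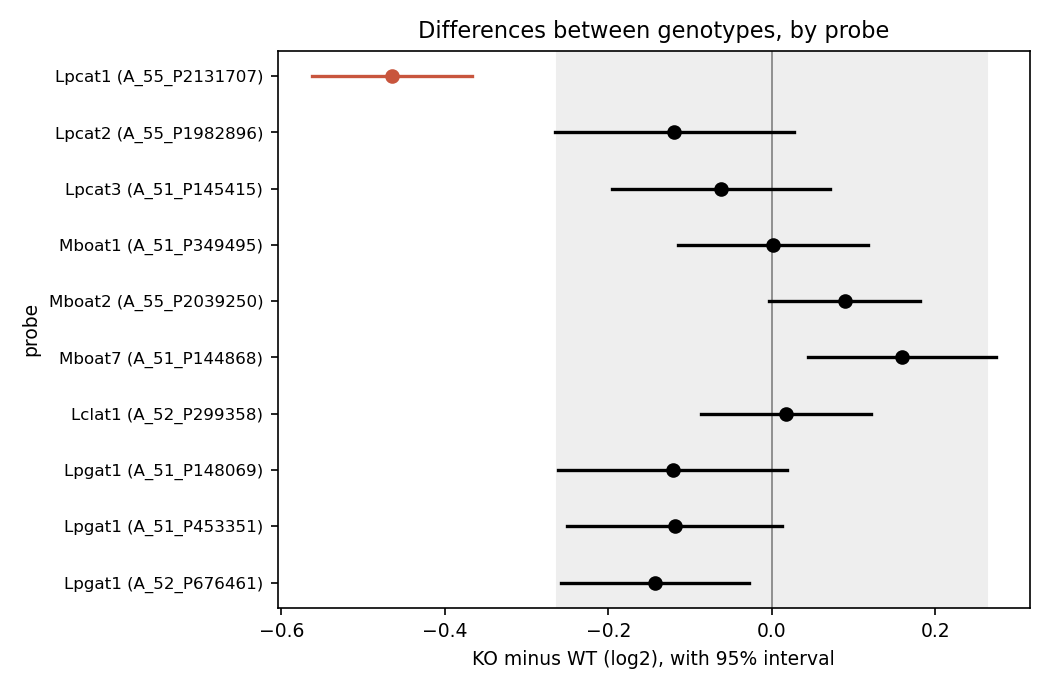
Differences between genotypes (KO minus WT, log2) for the 10 tested probes of the family, with the 95% interval of limma as a horizontal line; the grey band spans a 1.2-fold change in either direction and the red probe is the one called. Lpcat1 lies outside the band with its whole interval, and the intervals of the relatives lie inside it apart from the ends of those of Lpcat2 and Mboat7.

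The RNA of rod photoreceptors also differed between the genotypes. In whole tissue, fewer cells of a type and less RNA per cell cannot be told apart. Among 20 rod markers, 18 were lower in KO and 5 were called lower, among them Sag and Gnb1, with a median difference of -0.21. Over all 14940 genes 1.49% were called lower, 8640 were below 0 and the median was -0.02. These rod values depended on the scaling. Under quantile normalization 15 of the 20 were lower, the median was -0.11, and 2 were called lower and 1 higher. The count of 5 was 3 without WT 2, KO 2 or KO 4, with no filter on dim probes or with the replicate block. The summed signal of the rod list was 3355 to 3508 times the 75th percentile in WT and 2865 to 3053 in KO. The part of the rod RNA in the Lpcat1 difference was not tested.

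The 5 probes with levels most like those of Lpcat1 over the 8 arrays belonged to Ubtd1, Ubxn11, Tmem9, Rpl10a and Dpf3. Their Pearson correlations with the Lpcat1 probe ran from 0.990 to 0.998. Most of the variation of the Lpcat1 probe lies between the genotypes, so a probe picked by this correlation has to be lower in KO. The differences were -0.46 for Ubxn11, -0.33 for Ubtd1, -0.29 for Dpf3, -0.24 for Tmem9 and -0.21 for Rpl10a. All arrays share the slide and the split into genotypes, and 643 of the 19677 named probes compared had a correlation over 0.9.

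Lpcat2 is the member closest to Lpcat1 in sequence. It acylates lysophosphatidylcholine and also acetylates lyso-PAF to make platelet-activating factor, and it is known from macrophages and other inflammatory cells. Its probe (A_55_P1982896) was measurable in each of the 8 samples. The WT levels were -2.25, -2.35, -2.31 and -2.17, and the KO levels were -2.50, -2.29, -2.32 and -2.44. KO 1 and KO 4 lay below all WT samples and KO 2 and KO 3 among them. The difference was -0.12 (SE 0.06, 95% interval -0.27 to 0.03, adjusted p = 0.302), so a rise of 1.2-fold lay outside the interval. With a normexp background correction the Lpcat2 difference was -0.03, and the raw signals of its probe were 115.5 to 157.0. Lpcat2 was not called, so no fall was established. The markers of microglia and macrophages were read in the same samples. All 18 measured markers were above 0 in KO minus WT and 8 were called higher (median 0.37), beside 1.99% of all genes, led by Tyrobp at 0.65 (SE 0.06, adjusted p = 0.0034), C1qc and C1qb. The count of 8 fell to 3 with no filter on dim probes, to 4 with the replicate number as a block and to between 4 and 5 without WT 2, WT 3, KO 2 or KO 3. The summed signal of the list overlapped between the genotypes, at 35.5 to 42.9 times the 75th percentile in WT and 40.2 to 46.1 in KO. That overlap rested on 1 bright Itgam probe, which made up 44.4% to 59.9% of each sum and differed by 0.02. Without it, a comparison added after the values were seen, the sums were 16.8 to 18.4 in WT and 21.3 to 22.4 in KO and did not overlap, and 14 of the 18 markers had all KO levels above all WT levels (6.05% of all tested probes did). Whether these cells bear on the Lpcat2 level was not tested.

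Lpcat2b, a sequence relative of Lpcat2, and Lpcat4, which acylates lysophosphatidylethanolamine among other acceptors, could not be tested. The Lpcat4 probe (A_55_P2087958) was well above background on 0 of 8 arrays, with raw signals of 4.26 to 6.83. The Lpcat2b probe (A_52_P378900) was well above background on 1 array, WT 4, where its raw signal was 55.3, and on 0 of the 4 KO arrays. Its levels were -6.00, -6.32, -5.53 and -3.67 in WT and -5.31, -6.65, -6.81 and -5.92 in KO. Apart from WT 4 these values have no order, since they are not above background. Neither probe was above background in any KO sample, and for neither can a fold be stated.

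The start regions of these unmeasured genes are shown because they lie at opposite ends of the family. The 250 bases before the RefSeq start (build GRCm38.p6) held 2 CpG dinucleotides at Lpcat2b and 38 at Lpcat4, the fewest and the most of the 11 windows of the 10 members, of which Lpgat1 has 2. The median of all 32851 windows in the table was 6. Capitals mark GC boxes, searched as GGGCGG and its reverse complement CCGCCC, which occur in 32.7% of all windows and in 10 of the 11 of the family. The TATAAA motif, searched on both strands, occurs in 12.4% of all windows and in 1 of the 11, that of Lpcat2.
Lpcat2b, chr5:107431299-107431548, plus strand: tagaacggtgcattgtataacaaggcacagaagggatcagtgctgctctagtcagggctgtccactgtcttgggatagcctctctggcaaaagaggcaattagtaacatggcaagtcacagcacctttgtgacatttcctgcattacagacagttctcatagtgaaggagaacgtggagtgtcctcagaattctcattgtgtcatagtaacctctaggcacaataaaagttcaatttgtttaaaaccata
Lpcat4, chr2:112239591-112239840, plus strand: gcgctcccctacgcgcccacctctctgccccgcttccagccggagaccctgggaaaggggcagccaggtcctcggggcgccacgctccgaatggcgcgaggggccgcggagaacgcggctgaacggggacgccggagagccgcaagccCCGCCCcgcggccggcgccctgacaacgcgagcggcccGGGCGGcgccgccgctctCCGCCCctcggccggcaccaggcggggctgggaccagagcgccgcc
The Lpcat2b window was 43.2% G and C with 0 GC boxes, and the Lpcat4 window 79.6% with 3. The window of Lpcat1 lay between them, with 16 CpG and 2 GC boxes. A motif match is a description of the sequence only.

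Lclat1, which acylates lysocardiolipin and lysophosphatidylinositol, had nearly equal means in the genotypes. Its WT levels were 1.01, 0.96, 1.00 and 1.1 and its KO levels 0.98, 1.05, 1.01 and 1.1. The ranges coincided almost completely, and the difference was 0.02 (SE 0.05, 95% interval -0.09 to 0.12, adjusted p = 0.849).

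Lpgat1, named for its action on lysophosphatidylglycerol, was the only member with more than 1 probe, and its 3 probes gave nearly the same difference. The probe A_51_P148069 read 3.87, 3.80, 3.64 and 3.71 in WT and 3.70, 3.69, 3.57 and 3.58 in KO. For A_51_P453351 the WT levels were 3.73, 3.63, 3.70 and 3.64, and the KO levels 3.63, 3.66, 3.45 and 3.48. At the third, A_52_P676461, WT samples read 0.83, 0.97, 0.98 and 1.00 and KO samples 0.83, 0.84, 0.83 and 0.73. At each probe the genotypes overlapped, at the last one through WT 1 alone. The differences were -0.12 (SE 0.06), -0.12 (SE 0.06) and -0.14 (SE 0.05), with adjusted p of 0.274, 0.254 and 0.132, and the KO signal was 90.6% to 92.1% of that in WT. The 95% intervals reached from -0.26 to 0.02, from -0.25 to 0.01 and from -0.26 to -0.03. None of the 3 was called. The third had an unadjusted limma p of 0.0213, and 3 of the 10 tested probes of the family were under 0.05 before adjustment, Lpcat1 and Mboat7 being the others, beside 23.8% of all tested probes.

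Lpcat3 is the main enzyme that puts linoleate and arachidonate into phosphatidylcholine. Its levels (A_51_P145415) were 0.55, 0.51, 0.65 and 0.49 in WT and 0.60, 0.39, 0.50 and 0.46 in KO. The genotypes overlapped, and the difference was -0.06 (SE 0.06, 95% interval -0.20 to 0.07, adjusted p = 0.560). Mboat1, which adds oleate to lysophosphatidylethanolamine and lysophosphatidylserine, differed by 0.00 (SE 0.05, 95% interval -0.11 to 0.12, adjusted p = 0.987). Its probe (A_51_P349495) read 1.01, 1.07, 0.92 and 1.01 in WT and 0.90, 1.03, 1.05 and 1.04 in KO, again with overlap.

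Mboat2 and Mboat7 were the relatives whose KO levels all lay above their WT levels. Mboat2, which adds oleate to lysophosphatidylcholine and lysophosphatidylethanolamine, read 0.87, 0.84, 0.74 and 0.78 in WT and 0.91, 0.89, 0.88 and 0.90 in KO (A_55_P2039250). The closest pair was 0.02 apart, and the difference was 0.09 (SE 0.04, 95% interval -0.0031 to 0.18, adjusted p = 0.225), a KO signal of 106.4% of WT. Mboat7, which puts arachidonate into phosphatidylinositol, read 2.00, 2.03, 2.03 and 2.09 in WT and 2.13, 2.12, 2.23 and 2.30 in KO (A_51_P144868). The gap between the closest pair was 0.03, and the KO signal was 111.6% of WT (difference 0.16, SE 0.05, 95% interval 0.04 to 0.27, adjusted p = 0.101). Neither was called. With an empirical Bayes fit that used a trend and robust variances the adjusted p of Mboat7 was 0.0357, and its fold change was still under 1.2. The count of 2 in 10 tested probes above without overlap compares with 6.05% of all tested probes (2055), 1 below, Lpcat1, with 11.4%, and 3 of 10 on either side with 17.5%.

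The second group held the acyltransferases that build phosphatidic acid, the precursor of glycerophospholipids, together with the related tafazzin gene Taz, whose product remodels cardiolipin. These enzymes resemble Lpcat1 in sequence. Of these 10 genes, all tested, none was called in either direction (0 by limma and 0 by the unpaired test of the methods, with 4 at an unadjusted limma p under 0.05), beside 3.48% of all 14940 genes tested (1.99% higher and 1.49% lower). By the brightest probe of each gene, 3 were above 0 and 7 below, with a median of -0.04 beside -0.02 over all genes. With the median shift, quantile normalization or the percentile of detected probes the split was 5 and 5. Gpat3, a glycerol-3-phosphate acyltransferase of the endoplasmic reticulum, had the largest difference, 0.17 (SE 0.06, adjusted p = 0.116), with all KO levels above all WT levels. Taz, Gpat4, Agpat3 and Agpat5 were each lower in all KO samples than in any WT sample, at -0.14 (SE 0.05, adjusted p = 0.121), -0.12 (SE 0.04, adjusted p = 0.125), -0.11 (SE 0.04, adjusted p = 0.175) and -0.09 (SE 0.04, adjusted p = 0.272). Over all tested probes 11.4% lay below and 6.05% above without overlap, and 23.8% had an unadjusted p under 0.05. Agpat3, which makes phosphatidic acid with docosahexaenoate, read 5.13, 5.13, 5.12 and 5.14 in WT and 5.08, 4.97, 5.07 and 4.93 in KO. Agpat1 and Gpam were within 0.01 of 0 and Agpat4 at 0.03 (SE 0.06), and the sign of these 3 depended on the scaling or on a single array. Agpat2 differed by 0.13 (SE 0.09, adjusted p = 0.448), and by 0.04 without WT 2. Gpat2 differed by -0.09 (SE 0.21, adjusted p = 0.838), a value decided by WT 2, which read -0.87 while the other WT samples read -1.86 to -1.60, and without WT 2 the difference was 0.14.

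**Figure D3:**
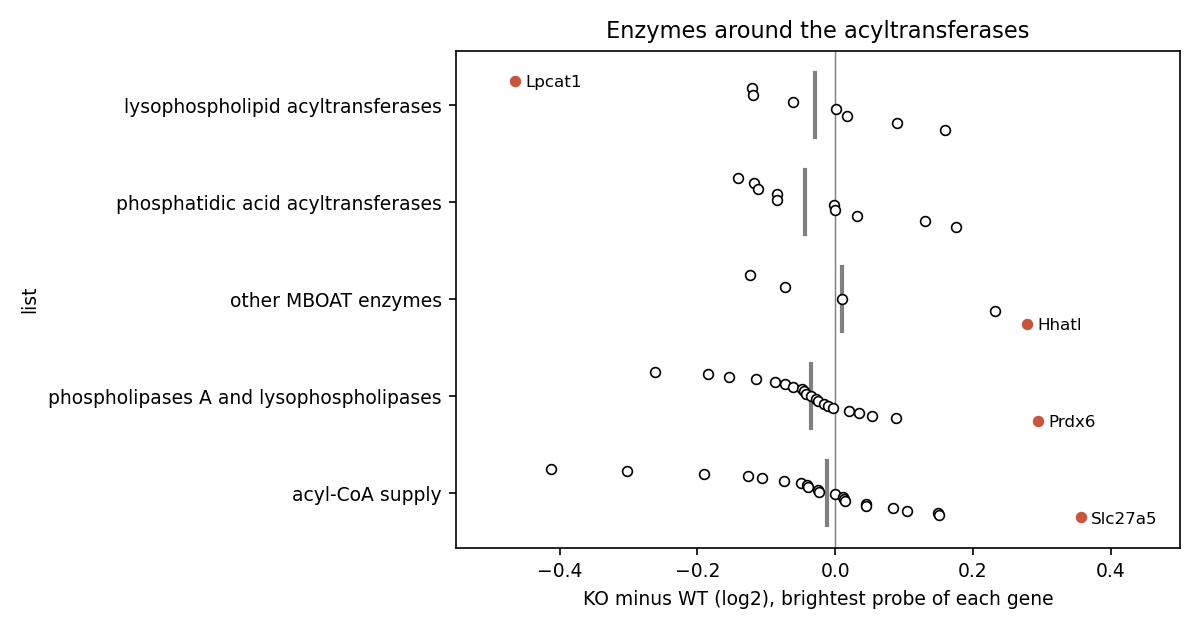
Each circle is 1 gene, placed at the difference between genotypes (KO minus WT, log2) of its brightest probe, in the family and in 4 lists of enzymes around it; grey bars are list medians and filled red circles are the genes called. The filled genes are Lpcat1, alone on the left, Hhatl, Prdx6 and Slc27a5, and the medians of all 5 lists lie within 0.05 of 0.

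In the lists for the other steps of the cycle 1 gene each was called. Of 21 tested phospholipases A and lysophospholipases (31 listed), 1 was called higher and 0 lower, beside 1.99% and 1.49% of all genes tested, and the median was -0.03. The called gene was Prdx6, a peroxiredoxin that also has phospholipase A2 activity. Its brightest probe read 4.69, 4.83, 4.85 and 4.91 in WT and 5.0, 5.18, 5.14 and 5.14 in KO, all KO samples above all WT samples (difference 0.29, SE 0.06, adjusted p = 0.0342). The probes at 0.30 and 0.33 were called too, and a dim one was not (0.61, SE 0.42). Removing any array except KO 1 raised the adjusted p of the brightest probe over the threshold, to as much as 0.0926 without KO 2. Pla2g7, which encodes the PAF acetylhydrolase, stayed just short of the fold limit at its brightest probe (-0.26, SE 0.05, adjusted p = 0.0229) and passed at the other one (-0.28, adjusted p = 0.0390). It was named after its values were seen, and with the mean of each gene's probes 2 genes of the list were called.

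Of 22 tested genes that supply acyl-CoA (23 listed), 1 was called higher and 0 lower, beside 1.99% and 1.49% of all genes tested. By sign, 10 were above 0 and 12 below. The called gene was Slc27a5, which encodes an acyl-CoA synthetase for very long-chain fatty acids and bile acids. It was higher in KO, at -2.36, -2.32, -2.43 and -2.46 against -2.67, -2.78, -2.72 and -2.83 in WT (difference 0.36, SE 0.05, adjusted p = 0.0140). Its second probe was called as well (0.47, SE 0.10). The adjusted p of the brighter probe was 0.0506 without WT 2, and the fold change fell under the limit with a normexp background correction (0.26). Slc27a2 had the largest difference of the list, -0.41, and was not called (adjusted p = 0.0819). Dbi was lower but under the fold limit (-0.19, adjusted p = 0.0240). Both were named after their values were seen. The summed signal of the list was 138.5 to 139.9 in WT and 131.0 to 133.2 in KO, and without Dbi, its brightest gene, the sums overlapped. Among 5 tested MBOAT enzymes outside the family (7 listed), 1 was called higher and 0 lower, beside the 1.99% and 1.49% of all genes. The called gene was Hhatl, a homolog of hedgehog acyltransferase. It read -2.53, -2.62, -2.65 and -2.61 in WT and -2.47, -2.24, -2.33 and -2.24 in KO (difference 0.28, SE 0.06, adjusted p = 0.0390). This call was lost when any array except KO 1 was left out, with an adjusted p of up to 0.104 without WT 2. The medians of these lists were -0.01 and 0.01.

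**Figure D4:**
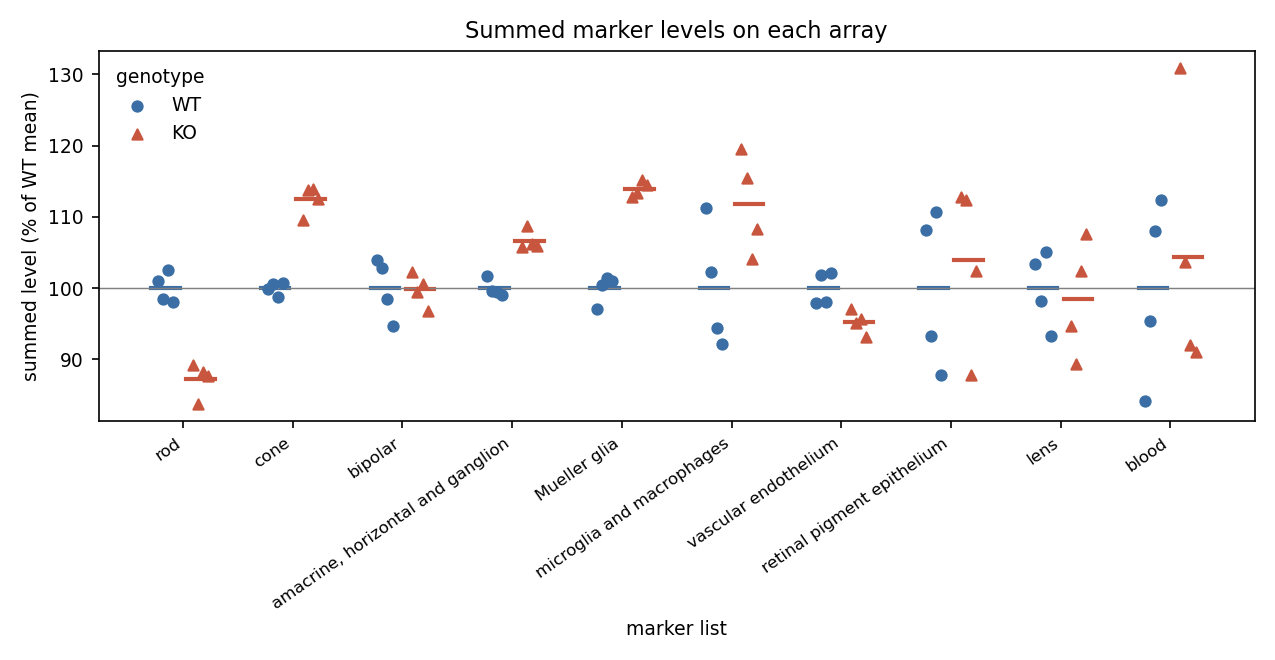
Summed signal of each list of cell type markers on each array, as a percentage of the WT mean of that list; circles are WT, triangles are KO and horizontal bars are the means of 4 arrays. The rod and vascular triangles lie below all circles of their lists, and the cone, Mueller glia and amacrine, horizontal and ganglion triangles above them. The bipolar, microglia, pigment epithelium, lens and blood triangles overlap the circles, for microglia through 1 bright Itgam probe, without which the KO sums (21.3 to 22.4) lie above the WT sums (16.8 to 18.4).

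The markers of the other cells in the tissue were recorded beside these results. All 20 rod markers and all 10 cone markers were measured, and these cells form the outer retina. Over all 14940 genes 6300 were above 0, 1.99% were called higher and 1.49% lower. All 10 cone markers were above 0 (2 called, Arr3 and Opn1sw, median 0.19), as were 9 of 12 Mueller glia markers (3 called, Apoe, Clu and Kcnj10, median 0.15). The calls of Opn1sw, Clu and Kcnj10 did not hold in every run that left out 1 array, and Opn1sw was lost in 7 of 8. Bipolar markers (11) and those of amacrine, horizontal and ganglion cells (14) had 0 calls and medians of 0.02 and 0.08, and of 10 vascular markers 1, Flt1, was called higher (median -0.13), a call lost in 6 of 8 such runs. The summed vascular signal was lower in every KO sample, but without its brightest probe it was 24.61 to 25.32 times the 75th percentile in WT and 23.59 to 25.04 in KO, with overlap. Of 11 pigment epithelium markers, Best1 was not measurable and 0 of the other 10 were called, with Rpe65 at 0.25 (SE 0.11, adjusted p = 0.208). By sign, 8 of these 10 were above 0 and 2 below, with a median of 0.11 that ran from 0.03 to 0.18 over all settings. The lens list (8 of 12 measured, with Crybb2, Crygb, Mip and Lim2 not measurable) and the blood list (4 of 6) had 0 calls and medians of -0.09 and 0.08. Over all settings the lens median ran from -0.12 to -0.02, and the blood median from -0.02 to 0.16, with a change of sign. The bearing of any of these cells on the levels of the acyltransferases was not tested.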

How the data were processed

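Total RNA of the whole retina was hybridised in 1 colour (Cy3) to Agilent SurePrint G3 Mouse GE arrays, with 4 WT and 4 KO samples grouped by their labels. The submitters' processing notes name Agilent Feature Extraction 10.7.1.1 for the scans. Per the file headers, the deposited scanner values are intensity on a linear scale after background subtraction, not scaled between arrays (62976 spots). The authors applied a 75th percentile shift in GeneSpring, and their deposited log2 values served as an alternative.

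Each level is log2 of a processed signal from which the 75th percentile of the array was subtracted, taken over 59305 non-control spots, without outlier-flagged spots and with repeated spots averaged. Symbols came from a RefSeq table (GRCm38.p6, used for names only since the array design is on mm9), which named 26413 of 55681 probes (47.4%). The genotypes were fitted in limma 3.58.1 (lmFit, eBayes; R 4.3.3) with no covariate and with Benjamini-Hochberg adjustment over 33975 probes. Tables were made in Python 3.11.15 with pandas 2.3.3. A gene's value was its brightest probe. Named genes were all probes of the family, all genes of the phosphatidic acid list, the called genes of the other pathway lists (up to 5 each) and of the marker lists (up to 3 each), Rpe65 and Tyrobp, and the 5 probes most like Lpcat1. 1 gene set by this rule is not reported here. The members and lists were chosen with earlier results of these data known. The count of unused per-sample columns was 0.

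The values were recomputed with a median shift, quantile normalization, the 75th percentile of detected probes, the authors' values, normexp (offset 50, on median signals), no filter, a filter on all 8 arrays, flagged spots kept, the methods' t-test, limma with trend and robust variances or with array weights, no fold limit, replicate number as a block, and leaving out each array. Slide and scan were shared by all arrays, so no slide block was fitted. The replicate numbers were not taken as pairs, because the correlations of same-numbered samples' deviations (0.28, 0.07, 0.05 and 0.12) were not all over 0.1. Tested on simulated data for KO against WT (33975 probes), the fit called 15 of 50 probes changed by 0.3, 35 of 50 changed by 0.5, 43 of 50 changed by 1 and 49 of 50 changed by 2 on the log2 scale, all with the right sign, and 5 of 33775 unchanged probes. The simulation drew independent noise for each probe and changed only 200 probes. It lacks variation shared between probes, so these rates need not hold for the real arrays.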

Additional observations from a re-analysis of the deposited data

Results flagged for a closer look

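Within a genotype, 3 of the 24 groups of 4 samples formed by the 12 probes of the family held a sample far from the other samples, where chance gives about 1 in 20. At the Mboat1 probe KO 1 was lowest, at 0.90 (gap to the nearest sample 0.836 of the group's range). At the Lpgat1 probe A_52_P676461 WT 1 was lowest among the WT samples, at 0.83 (0.853 of the range), and KO 4 was lowest among the KO samples, at 0.73 (0.90 of the range). The other Lpgat1 probes did not set these samples apart.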

How the results depend on the processing

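Lpcat1 was called lower under all 21 alternatives, at -0.50 to -0.39 (adjusted p 0.0002 to 0.0378), and it was the only probe of the family called in each of them. The median difference of the tested probes of the family stayed between -0.09 and -0.04. The number of probes called across the array moved far more (993, with 471 higher and 522 lower). It was 246 (139 higher) with no filter on dim probes, 1870 (748 and 1122) with no fold limit, and 332 lower with the median shift. Leaving out 1 array gave 391 to 1183 calls, 212 to 501 higher and 179 to 682 lower, and every array except KO 1 moved the total by over 1.5 times when left out, WT 2 the most. The share of calls that were higher was 47.4%, and 61.8% with the percentile of detected probes. With the replicate number as a block there were 395 calls (216 higher, 179 lower), and each sample's deviations correlated best with those of its own number, a hint from the data and not from the design. The phospholipase list had 1 called gene, 2 with the mean of each gene's probes, 3 with no fold limit, 2 without KO 1, and 0 with the median shift, with no filter or without WT 2, WT 3, WT 4, KO 3 or KO 4. Without WT 1 or KO 2 it had 1 called lower in place of the 1 called higher.

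A few differences near 0 changed sign, and the cause was not tested. With normexp, Mboat1 was at -0.0047, Lclat1 at -0.0082 and Gpam at 0.0071. With array weights, Mboat1 was at -0.0034, Agpat1 at 0.00083 and Gpam at 0.0062. Agpat1 and Gpam were at 0.019 and 0.0059 with quantile normalization, 0.0099 and 0.011 with the median shift, 0.020 and 0.022 with the percentile of detected probes, and 0.0099 and 0.012 with the authors' values. Leaving out 1 array gave -0.026 to 0.036 for Mboat1, -0.0047 to 0.044 for Lclat1, -0.024 to 0.022 for Agpat1, -0.0028 to 0.063 for Agpat4, -0.027 to 0.042 for Gpam and -0.19 to 0.14 for Gpat2.

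Sag and Gnb1 fell short of the fold limit with quantile normalization (-0.25 and -0.22). Hhatl lost its call with the median shift, normexp, no filter, the t-test and the block, Prdx6 with the median shift and no filter, and Slc27a5 with normexp and no filter. The other calls lost were those of Apoe (no filter), Clu, Kcnj10 and Flt1 (no filter, block) and Opn1sw (no filter, t-test, block). Signal over background limits Lpcat2b and Lpcat4, for which no difference could be measured.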
